A study of Mus musculus with 10 samples.

Results

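Expression of 38 genes of macrophages and other phagocytes was described in mouse leg muscle, out of 19938 genes measured on Affymetrix Mouse Gene 1.0 ST arrays. The genes were taken from a list of 39 macrophage, complement and phagocyte genes by their symbol in the array annotation, and Spp1, the secreted protein osteopontin, was not analysed here because no probe set named it alone. The study asked how fiber-type genes are controlled, among others by linc-MYH, a long intergenic non-coding RNA of fast muscle fibers, and 10 arrays were made. On 2 arrays, tibialis anterior (TA) muscle, a fast muscle of the lower leg, had been electroporated with 10 µg of a vector for an shRNA against linc-MYH (shlincMYH in the labels, written shlinc-MYH here), and on 2 arrays with the control vector, which the methods give as an shRNA against LacZ in the opposite leg. Both TA groups were mice of 8 weeks, of a strain written C56BL6N in the labels, and the fibers that carried green fluorescent protein from the vector were dissected 2 weeks after electroporation. On 3 arrays the RNA came from gastrocnemius muscle of cSix1 KO mice, which carry a floxed allele on both chromosomes and a Cre transgene under the human skeletal actin promoter, a promoter of muscle fibers, and on 3 arrays from wild type control gastrocnemius of the same strain and age. The TA samples were therefore dissected fibers with the cells that stayed attached to them, and the gastrocnemius samples were whole muscle. In such bulk RNA, more cells of a type and more RNA per cell cannot be told apart.

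Macrophages are phagocytes of the tissues. They take up dead cells, bound antibodies and complement-coated particles and degrade them in lysosomes. In muscle, resident macrophages lie in the connective tissue between fibers, and blood monocytes enter after injury in answer to chemokines and become macrophages that clear debris. Electroporation is itself an injury to muscle. The genes were ordered by role. The resident group held the mannose receptor Mrc1, the hemoglobin-haptoglobin receptor Cd163, the hyaluronan receptor Lyve1 and the folate receptor Folr2. The 3 chains of C1q, the first component of the classical complement pathway, formed a group of their own. The other groups were 12 lineage, adhesion and adaptor genes, 8 phagocytic and inflammatory receptors or their enzymes, 7 lysosomal and secreted genes, and 4 genes of monocyte recruitment.

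The transcription factor PU.1, encoded by Spi1, is required for macrophage development and binds purine-rich sites with the core GAGGAA. RefSeq promoter windows of GRCm38.p6, which run from 250 bases before to 50 bases after a gene's start, were matched for 27 of the 38 genes. GAGGAA, read on both strands (TTCCTC on the other), stood in a window of 16 of the 27 (59.3%), against 30.5% of the 17492 genes with a window. The AP-1 site TGACTCA, also read on both strands, stood in 3 of the 27, Cd68, Folr2 and Gpnmb (11.1%), against 5.40% of all genes. A match describes the letters of a window and no binding was measured. The 250 bases before the start are printed for 4 genes of different roles: Mrc1, the gene called in the comparison of cSix1 KO with control muscle, the C1q chain C1qb, the adhesion receptor chain Itgam and the lysosomal Cd68. All are written 5′ to 3′ on the strand of the gene, with each GAGGAA or TTCCTC in capitals. They are chr2:14229164-14229413 (plus strand) with 3 matches, chr4:136886201-136886450 (minus strand) with 1 match, chr7:128062390-128062639 (plus strand) with 2 matches and chr11:69666171-69666420 (minus strand) with 1 match.
Mrc1: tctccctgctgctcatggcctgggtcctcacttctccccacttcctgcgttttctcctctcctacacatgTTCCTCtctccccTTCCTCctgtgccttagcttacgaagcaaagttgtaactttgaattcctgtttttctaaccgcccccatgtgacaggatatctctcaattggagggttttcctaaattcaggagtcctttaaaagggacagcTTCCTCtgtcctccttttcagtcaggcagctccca
C1qb: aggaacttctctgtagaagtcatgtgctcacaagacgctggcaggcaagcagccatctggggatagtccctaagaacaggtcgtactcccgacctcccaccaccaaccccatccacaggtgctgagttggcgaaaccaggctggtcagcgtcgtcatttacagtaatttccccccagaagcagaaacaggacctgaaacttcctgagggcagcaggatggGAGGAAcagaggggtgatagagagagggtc
Itgam: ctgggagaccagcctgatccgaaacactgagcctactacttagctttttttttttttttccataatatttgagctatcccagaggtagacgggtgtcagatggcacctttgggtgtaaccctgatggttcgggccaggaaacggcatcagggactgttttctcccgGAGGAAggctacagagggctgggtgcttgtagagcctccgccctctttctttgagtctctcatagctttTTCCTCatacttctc
Cd68: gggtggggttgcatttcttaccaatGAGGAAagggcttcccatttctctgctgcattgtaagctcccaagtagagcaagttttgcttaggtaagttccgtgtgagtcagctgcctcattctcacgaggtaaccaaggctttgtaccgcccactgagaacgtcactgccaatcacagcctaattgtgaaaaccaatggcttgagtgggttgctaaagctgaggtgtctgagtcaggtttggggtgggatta

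Single arrays stood apart for these genes, and results are given with and without them. In gastrocnemius, cSix1 KO replicate 1 was the highest of the 6 arrays for 34 of the 38 genes, against 18.1% of all genes, and control replicate 2 was the lowest for 27, against 17.3% of all genes. In TA, control replicate 1 was above control replicate 2 for 33 of the 38 genes, against 47.9% of all genes. The medians of the arrays over all genes lay between 5.26 and 5.32 on the log2 scale in TA and between 6.96 and 7.04 in gastrocnemius, so no level was compared between the tissues. No probe set among those used named linc-MYH alone, and the knockdown and the knockout were not checked here. The labels give no sex. In gastrocnemius, Xist was above the Y-linked Uty on replicates 1 and 2 of both groups and below it on replicate 3 of both. Leaving out 1 array there thus also left the groups unequal in this signal. In TA, Xist was below Uty on all 4 arrays. The methods say that electroporated muscles of a condition were taken from separate mice, without tying them to these arrays. For gastrocnemius neither labels nor methods say so. Each gastrocnemius group held arrays with Xist above Uty and an array with Xist below it, so its arrays did not all come from 1 animal. The p-values there measure the spread between these arrays, and how much of it is technical is not known.

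In gastrocnemius, all 38 genes had a higher mean on the cSix1 KO arrays than on the control arrays, against 52.8% of all genes. Their median log2 fold change was 0.62, against 0.01 over all genes, and single genes ranged from 0.04 (Lyve1) to 1.07 (Ccl2). Of the 38, 1 gene, Mrc1, was called higher by limma at an adjusted p of 0.05, against 0.908% of all genes (181 of 19938), and 0 were called lower, against 0.833%, or 1.74% of all genes in either direction. At an unadjusted p of 0.05, 25 were higher, against 8.44% of all genes, and 0 were lower, against 6.50%. Every cSix1 KO array was above every control array for 25 genes, against 11.0% of all genes, and below every control array for 0, against 9.85%. With sex as the arrays show it as a block, Mrc1 was the only one of the 38 called (limma adjusted p = 0.0196). The groups were balanced in this signal, so the block could change p-values but no fold change. The median was therefore again 0.62.

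The difference was uneven across the cSix1 KO arrays. Relative to the control mean, the median of the 38 genes was 1.04 on replicate 1, 0.39 on replicate 2 and 0.34 on replicate 3, while the control arrays were at 0.04, -0.14 and 0.07. Without cSix1 KO replicate 1 the median log2 fold change was 0.32, and it stayed above 0 for 36 of the 38 genes, against 55.9% of all genes. The exceptions were Aif1 (-0.11) and Gpnmb (-0.02). Both remaining cSix1 KO arrays were above every control array for 25 genes, against 14.9% of all genes, and Mrc1 was again the only one of the 38 called, against 0.481% of all genes called in either direction.

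**Figure D1:**
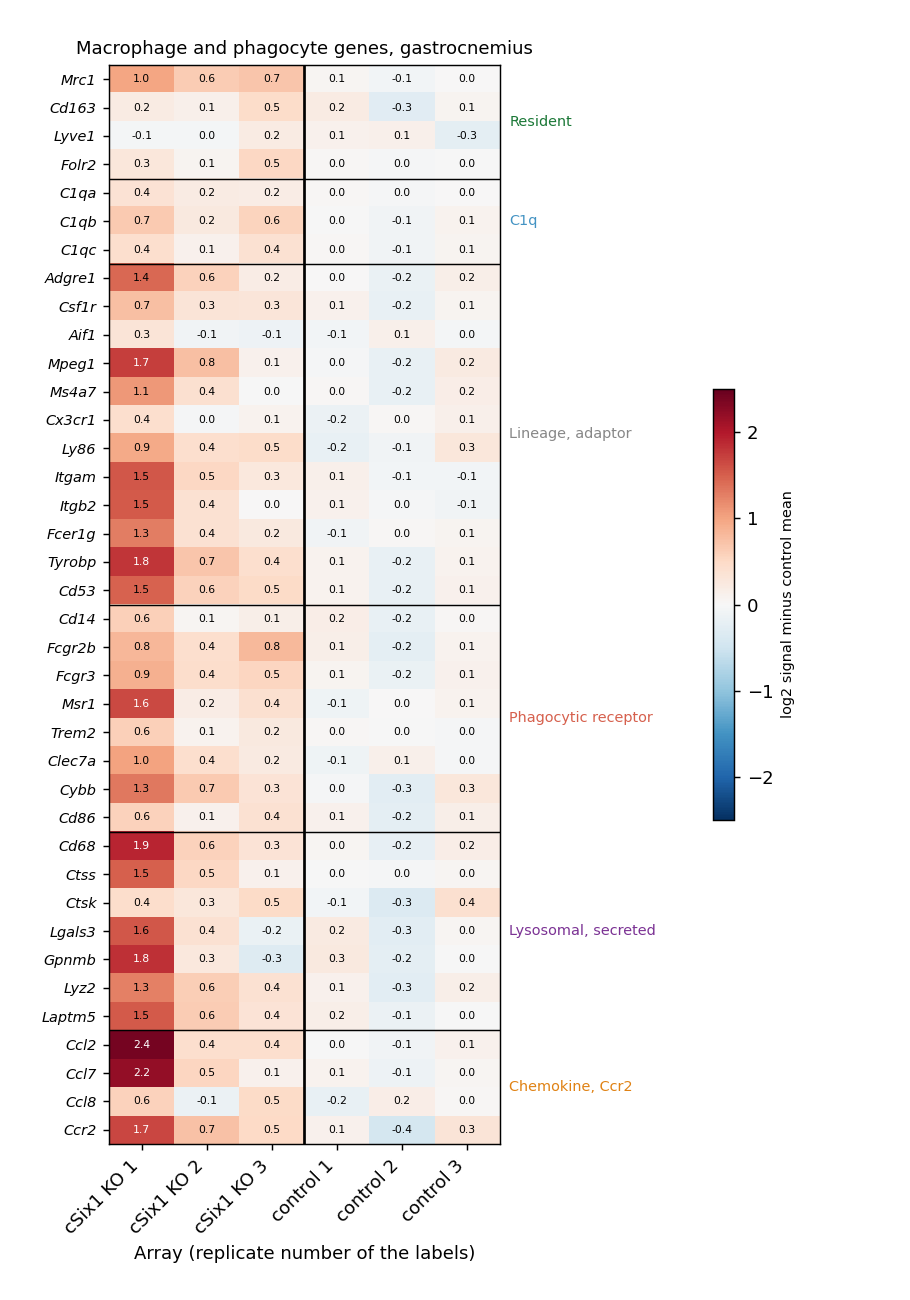
Log2 signal of each of the 38 genes on each gastrocnemius array minus the mean of the 3 control arrays, with genes grouped by role (rows) and arrays in columns, cSix1 KO left of the line and control right of it. The strongest differences sit in the column of cSix1 KO replicate 1, where Ccl2 is 2.4 and Cd68 1.9 above the control mean, while Mrc1 is 0.6 to 1.0 above it on all 3 cSix1 KO arrays.

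Among the resident genes, Mrc1, the mannose receptor that takes up glycoproteins and is used as a marker of tissue macrophages, had log2 signals of 9.58, 9.22 and 9.28 on the cSix1 KO arrays, against 8.64, 8.53 and 8.59 on the control arrays. The groups were separated by more than the spread within either: the mean was 9.36 ± 0.19 in cSix1 KO muscle and 8.59 ± 0.06 in control muscle (SD, n = 3 each), a log2 fold change of 0.77 (SE 0.10, 1.71-fold, limma adjusted p = 0.0139). It was 0.66 (adjusted p = 0.0349) without cSix1 KO replicate 1, and 0.74 with an adjusted p of 0.0678 without control replicate 2. Folr2, a folate receptor of resident macrophages, was at 8.66, 8.45 and 8.91 on the cSix1 KO arrays, against 8.41, 8.36 and 8.38 on the control arrays. These groups did not overlap either, but the log2 fold change of 0.29 (SE 0.11) did not pass the test (adjusted p = 0.28). Cd163, which clears hemoglobin bound to haptoglobin, overlapped between groups, with 7.55, 7.45 and 7.80 on the cSix1 KO arrays, against 7.54, 7.06 and 7.40 on the control arrays. Lyve1, a hyaluronan receptor of resident macrophages and of lymphatic endothelium, was at 9.11, 9.12 and 9.38 on the cSix1 KO arrays, against 9.28, 9.30 and 8.91 on the control arrays, with a log2 fold change of 0.04 and a 95% interval of -0.25 to 0.32. Beside Lyve1, 3 of 4 lymphatic endothelial markers were above 0 (median 0.28, and 0.15 without cSix1 KO replicate 1) and none was called. The log2 fold changes were 0.66 for the transcription factor Prox1 (limma adjusted p = 0.067), 0.55 for the membrane glycoprotein Pdpn, 0.02 for the receptor Flt4 and -0.19 for Mmrn1.

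Of the 4 resident genes, 1 (Mrc1) was highest on cSix1 KO replicate 1 and 3 were highest on replicate 3, whereas 33 of the other 34 genes were highest on replicate 1. Over all genes, replicate 1 was the highest array for 18.1% and replicate 3 for 26.5%. The median log2 fold change of the resident genes was 0.28 with all arrays and 0.29 without cSix1 KO replicate 1. It was 0.17 without cSix1 KO replicate 3, where Lyve1 was at -0.049. This comparison of resident genes with the others is a description, without a test. Replicate 3 was also the only cSix1 KO array with Xist below Uty, and the part of sex in this pattern was not tested.

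The C1q chains are made by tissue macrophages and lie side by side on chromosome 4, in the order C1qa, C1qc, C1qb. C1qb was at 10.19, 9.77 and 10.09 on the cSix1 KO arrays, against 9.52, 9.45 and 9.63 on the control arrays, with a log2 fold change of 0.48 (SE 0.11, adjusted p = 0.0891). C1qa was at 8.20, 8.04 and 8.02 on the cSix1 KO arrays, against 7.86, 7.81 and 7.84 on the control arrays, and C1qc at 8.94, 8.63 and 8.89, against 8.53, 8.42 and 8.59. In all 3 chains every cSix1 KO array was above every control array. Log2 fold changes of 0.25 for C1qa and 0.31 for C1qc did not pass the test (adjusted p = 0.15 and 0.19), and the median of the 3 chains was 0.25 without cSix1 KO replicate 1, against 0.31 with it.

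The 12 lineage, adhesion and adaptor genes had a median log2 fold change of 0.64, with 0.35 without cSix1 KO replicate 1. Adgre1, which encodes the macrophage surface protein F4/80, was at 9.01, 8.14 and 7.75 on the cSix1 KO arrays, against 7.58, 7.41 and 7.72 on the control arrays. Csf1r, the receptor of the growth factor on which most macrophages depend, was at 9.27, 8.85 and 8.83 on the cSix1 KO arrays, against 8.64, 8.35 and 8.59 on the control arrays. For both genes replicate 1 was the highest array, and the groups did not overlap, but the lowest cSix1 KO value of Adgre1 lay only just above the highest control value. Their log2 fold changes were 0.73 (SE 0.28, adjusted p = 0.27) and 0.45 (SE 0.13, adjusted p = 0.16). Ly86, a partner of the Toll-like receptor relative Cd180, was at 9.34, 8.81 and 8.86 on the cSix1 KO arrays, against 8.20, 8.31 and 8.67 on the control arrays, and Cd53, a leukocyte tetraspanin, at 9.62, 8.71 and 8.62, against 8.23, 7.95 and 8.25. These were the genes of the group with the highest moderated statistics, and neither passed the test (adjusted p = 0.13 and 0.16).

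The remaining genes of the group differed in how much replicate 1 carried them. Tyrobp, the signaling adaptor DAP12 of many phagocyte receptors, had the highest log2 fold change of the 12, 0.97 (SE 0.31, adjusted p = 0.19) with all arrays and 0.55 without replicate 1. Itgam and Itgb2, the chains of the complement receptor CR3, were at 0.78 and 0.64 with all arrays and at 0.40 and 0.19 without replicate 1. Mpeg1, a pore-forming protein of phagosomes, was at 0.86 and 0.43, and Fcer1g, an adaptor of Fc receptors, at 0.64 and 0.31. Aif1, an actin-binding protein of macrophages (0.04), and the chemokine receptor Cx3cr1 (0.16) had the lowest log2 fold changes of the group. Ms4a7, a membrane protein of macrophages, was at 0.49. The cSix1 KO and control arrays overlapped in Ms4a7, Mpeg1, Itgb2, Aif1 and Cx3cr1.

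Among the 8 phagocytic and inflammatory receptor genes, the Fc receptors for IgG were nearest to the threshold. Fcgr2b, the inhibitory receptor, was at 8.76, 8.35 and 8.75 on the cSix1 KO arrays, against 8.08, 7.69 and 8.03 on the control arrays, and Fcgr3, an activating receptor, at 8.58, 8.14 and 8.23, against 7.75, 7.51 and 7.80. For both, the groups did not overlap, and the log2 fold changes were 0.69 (SE 0.14) and 0.62 (SE 0.13), each with a limma adjusted p of 0.0602. They were 0.62 and 0.49 without cSix1 KO replicate 1. The genes lie near each other on chromosome 1 and code for similar extracellular parts, and how far their probes tell them apart was not tested. Cybb, the catalytic subunit of the phagocyte NADPH oxidase, had a log2 fold change of 0.77, the scavenger receptor Msr1 of 0.75, the beta-glucan receptor Clec7a of 0.55, the costimulatory ligand Cd86 of 0.35, the lipid and lipoprotein receptor Trem2 of 0.31 and the lipopolysaccharide coreceptor Cd14 of 0.26. None of these 6 passed the test, and without replicate 1 they ranged from 0.10 (Cd14) to 0.49 (Cybb).

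The 7 lysosomal and secreted genes had a median of 1.53 above the control mean on cSix1 KO replicate 1, against 0.51 on replicate 2 and 0.34 on replicate 3. Cd68, a lysosomal membrane glycoprotein of macrophages, was at 9.74, 8.42 and 8.19 on the cSix1 KO arrays, against 7.89, 7.63 and 8.02 on the control arrays. Replicate 1 was thus 2.71-fold above the mean of replicates 2 and 3, and the log2 fold change of 0.94 (SE 0.36, adjusted p = 0.27) was 0.46 without it. Lyz2, the lysozyme of macrophages and other myeloid cells, was at 11.60, 10.93 and 10.72 on the cSix1 KO arrays, against 10.44, 10.06 and 10.48 on the control arrays. Laptm5, a lysosomal membrane protein of hematopoietic cells, was at 10.05, 9.16 and 8.87 on the cSix1 KO arrays, against 8.68, 8.38 and 8.51 on the control arrays. These groups did not overlap, but neither Lyz2 (0.76, SE 0.22) nor Laptm5 (0.84, SE 0.27) passed the test (adjusted p = 0.15 and 0.19). Gpnmb, a glycoprotein of lipid-laden and debris-clearing macrophages, and Lgals3, the lectin galectin-3, were named after their values were seen. Relative to the control mean, Gpnmb was at 1.83, 0.27 and -0.31 on the log2 scale on the cSix1 KO arrays, against 0.25, -0.24 and -0.018 on the control arrays. Lgals3 had log2 signals of 9.57, 8.40 and 7.85 on the cSix1 KO arrays, against 8.23, 7.74 and 8.05 on the control arrays. Replicate 3 lay below the control mean for both. The cathepsins Ctss and Ctsk, which are neighbors on chromosome 3, differed: Ctss, a protease of antigen-presenting cells, was at 0.70 and at 0.31 without replicate 1, and Ctsk, also a collagenase of osteoclasts and fibroblasts, at 0.40 and 0.38.

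The genes of monocyte recruitment had the highest values on cSix1 KO replicate 1, with a median of 1.94 above the control mean, against 0.48 on replicate 2 and 0.45 on replicate 3. Ccl2, the main ligand that draws monocytes through Ccr2, was at 8.95, 6.99 and 6.98 on the cSix1 KO arrays, against 6.55, 6.47 and 6.67 on the control arrays. Its receptor Ccr2 was at 8.10, 7.16 and 6.92 on the cSix1 KO arrays, against 6.53, 5.99 and 6.75 on the control arrays. In neither gene did the groups overlap, and replicate 1 was far above the others in both. The log2 fold changes were 1.07 (SE 0.47, adjusted p = 0.34) for Ccl2 and 0.97 (SE 0.31, adjusted p = 0.19) for Ccr2, and without replicate 1 they were 0.42 and 0.61. The gap between replicate 1 and the mean of replicates 2 and 3 ranked, among gaps in this direction, 3 of 19938 genes for Ccl2 (3.90-fold), 4 for Ccl7 (3.68-fold) and 5 for Gpnmb (3.60-fold). Ccl7, another ligand of Ccr2, is the neighbor of Ccl2 on chromosome 11, and its log2 fold change was 0.95. Ccl8, another chemokine gene of this stretch, had a log2 fold change of 0.31, with overlapping groups.

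**Figure D2:**
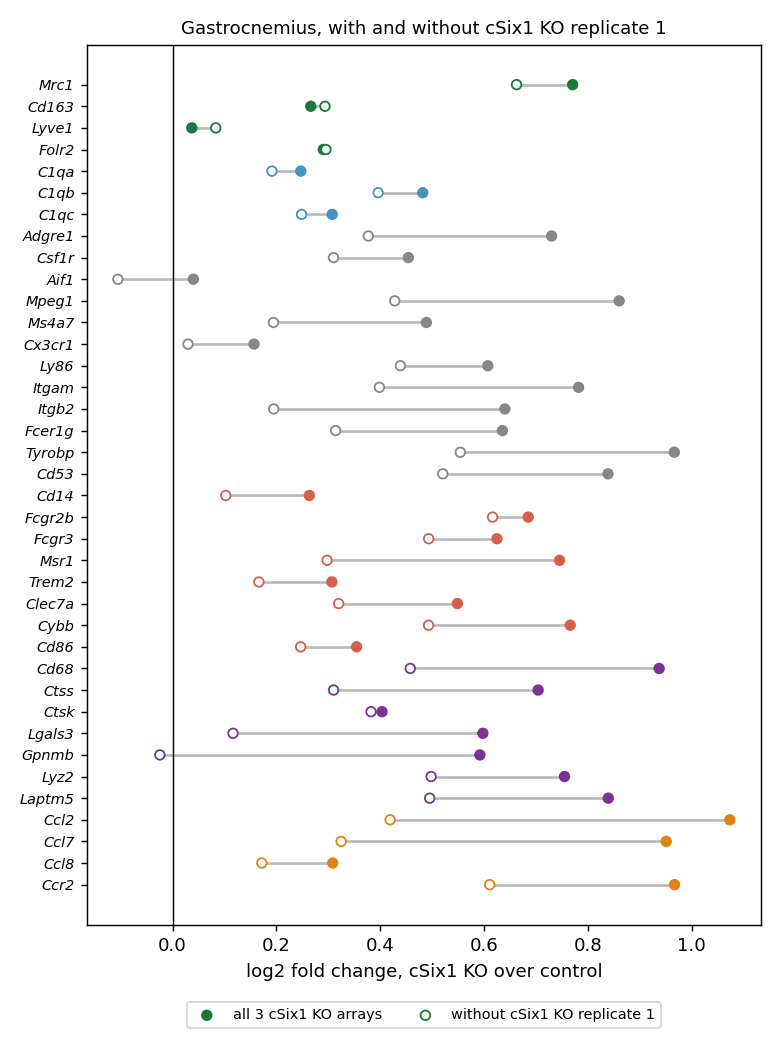
Log2 fold change of each gene in gastrocnemius, cSix1 KO over control, with all 3 cSix1 KO arrays (filled points) and without cSix1 KO replicate 1 (open points), colored by role as in the other plots. The filled and open points of each resident gene lie close together, while Ccl2 moves to 0.42 and Gpnmb to -0.02 when replicate 1 is left out.

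Other genes of phagocytes were read from lists chosen with the members. Of 72 measured genes, 60 had a log2 fold change above 0 in cSix1 KO gastrocnemius, against 52.8% of all genes, with a median of 0.21, and 0 were called by limma at the adjusted threshold, while 27 were higher at an unadjusted p of 0.05, against 8.44% of all genes. Without cSix1 KO replicate 1 the median was 0.15 and 57 were above 0, against 55.9% of all genes. Of 29 surface and regulator genes 22 were above 0, with a median of 0.22. The highest moderated statistics of these belonged to the lipopolysaccharide receptor Tlr4 (0.55, adjusted p = 0.0898), the leukocyte phosphatase Ptprc (0.79, adjusted p = 0.12) and the cytokine receptor chain Csf2rb (0.71, adjusted p = 0.14). Spi1, which encodes PU.1, was at 8.46, 7.65 and 7.43 on the cSix1 KO arrays, against 7.24, 6.94 and 7.19 on the control arrays, and did not pass the test (adjusted p = 0.21). All 4 subunit and partner genes of the phagocyte oxidase besides Cybb were above 0, from 0.27 to 0.51. Of 13 general lysosome genes, which all cells express, 11 were above 0 with a median of 0.19, led by the glucuronidase Gusb (0.55, adjusted p = 0.0720). Of 20 cytokine and activation genes 18 were above 0, with a median of 0.19. Among them Retnla, a secreted protein of alternatively activated macrophages, was at 0.68 (adjusted p = 0.19), the interleukin-1 antagonist Il1rn at 0.25 (adjusted p = 0.18) and the chemokine Ccl6 at 0.86 (adjusted p = 0.21), whereas Tnf was at -0.08 and Arg1 at 0.18. Of 6 other complement genes 5 were above 0, and properdin, encoded by Cfp, was the highest (0.60, adjusted p = 0.11).

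Markers of other cells moved beside these genes in gastrocnemius, and their part in the result was not tested. All 6 fibroblast markers were above 0 (median 0.40), and their mean log2 signal was 10.77 to 10.92 on the cSix1 KO arrays and 10.30 to 10.71 on the control arrays. All 6 satellite cell and myoblast markers were above 0 (median 0.59), at 7.53 to 7.99 on the cSix1 KO arrays and 7.15 to 7.32 on the control arrays, and Myog (0.82, adjusted p = 0.039) and Mymk (0.76, adjusted p = 0.014) were called. Of 11 neutrophil markers 10 were above 0 (median 0.24, and 0.15 without control replicate 3), at 5.14 to 5.48 on the cSix1 KO arrays and 5.07 to 5.17 on the control arrays. The remaining neutrophil marker was at -0.25, with every cSix1 KO array below every control array. At an unadjusted limma p of 0.05, 4 neutrophil markers were higher and 1 was lower. All 6 mast cell markers were above 0 (median 0.29). T, B and NK cell markers had a median of 0.01, and 0 of 12 passed an unadjusted p of 0.05. The neutrophil and the T, B and NK cell markers were dim. Ranked by control mean, their medians stood at percentiles 12.4 and 19.3 of all genes, against 60.8 for the 38 genes. Changes in them may therefore be missed. Among dendritic cell markers, Cd209a (0.78) and Itgax (0.59), which some macrophages also express, were the highest, against a median of 0.10 for all 9. Fast fiber markers had a median of -0.14, with 0 of 7 above 0.

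In TA, the same genes showed no difference between shlinc-MYH and control fibers that passed the test. Of the 38, 0 were called by limma in either direction, against 0.015% of all genes (3 of 19938). Their median log2 fold change was 0.07, against -0.03 over all genes, and 25 of 38 were above 0, against 43.7% of all genes. At an unadjusted p of 0.05, 2 were higher, Ms4a7 and Ly86, against 4.27% of all genes, and 0 were lower, against 4.37%. Both shlinc-MYH arrays were above both control arrays for 5 genes, against 16.3% of all genes, and below both for 0, against 23.0%. The 5 were Aif1, Ms4a7, Cx3cr1, Ly86 and Ccl7.

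The control arrays differed from each other more than the groups did. The gap between control replicate 1 and control replicate 2 had a median of 0.53 over the 38 genes, and both shlinc-MYH arrays lay between the control arrays for 18 of the 38, against 16.0% of all genes. Relative to the control mean, the median of the 38 genes was 0.13 and 0.14 on the shlinc-MYH arrays and 0.27 and -0.27 on the control arrays. Without control replicate 1 the median log2 fold change was 0.43, with 35 of 38 genes above 0, against 8788 of all 19938 genes. Without control replicate 2 it was -0.18, with 13 of 38 above 0, against 9180 of all 19938 genes. The median thus had opposite signs depending on which control array was left out.

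**Figure D3:**
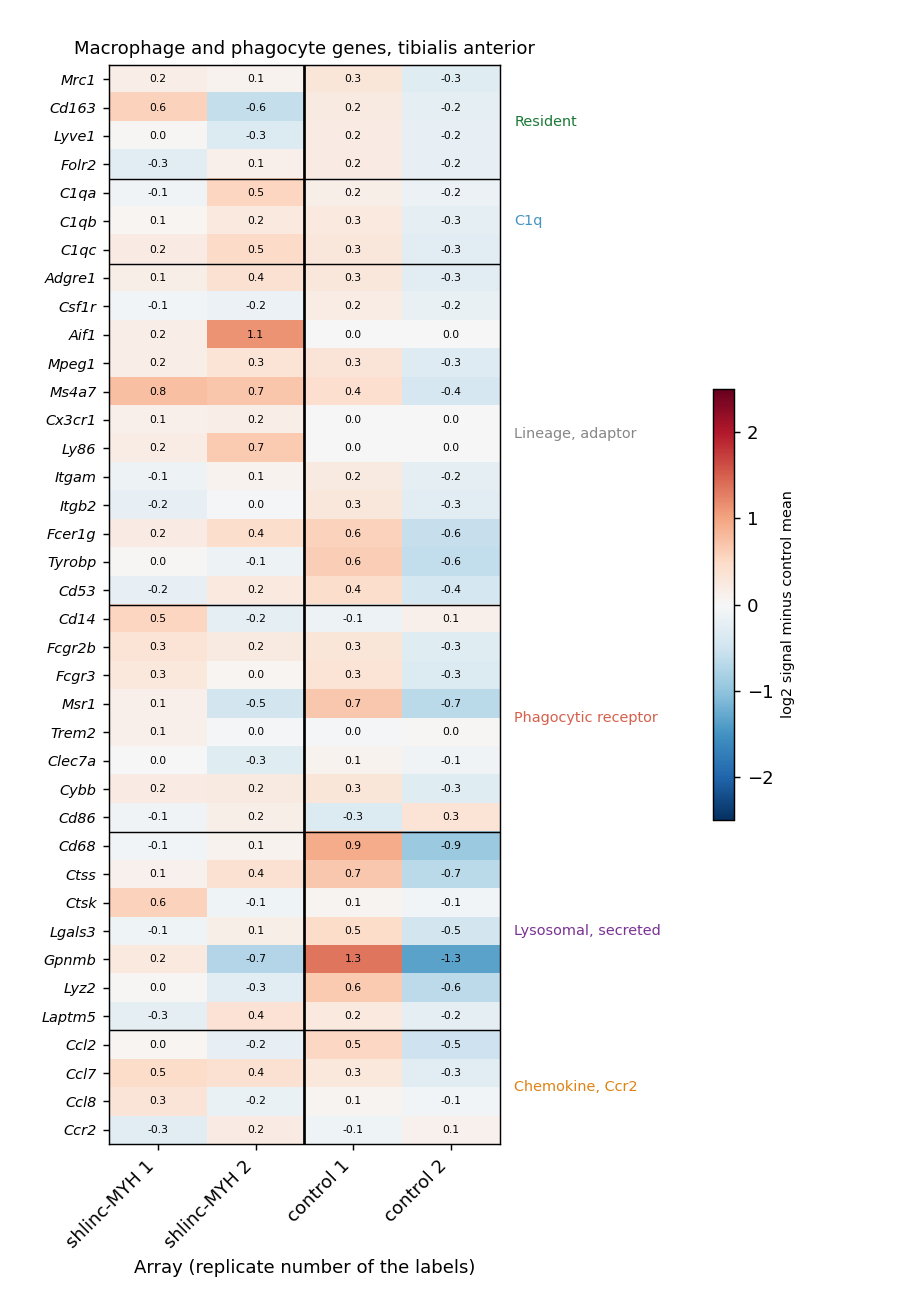
Log2 signal of each of the 38 genes on each TA array minus the mean of the 2 control arrays, with genes grouped by role (rows), the shlinc-MYH arrays left of the line and the control arrays right of it. Control replicate 1 lies above and control replicate 2 below their mean for most genes, furthest for Gpnmb, at 1.3 above and below it.

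The resident genes did not separate the TA groups, and with 2 arrays per group the intervals were wide (95% interval -0.90 to 0.89 for Cd163). Mrc1 was at 7.50 and 7.42 on the shlinc-MYH arrays, against 7.64 and 7.04 on the control arrays, so both shlinc-MYH values lay between the control values (log2 fold change 0.12, 95% interval -0.37 to 0.61). Cd163 was at 6.20 and 5.03 on the shlinc-MYH arrays, against 5.85 and 5.40 on the control arrays, Lyve1 at 6.14 and 5.77, against 6.31 and 5.91, and Folr2 at 4.55 and 4.94, against 5.02 and 4.60. All 4 were higher on control replicate 1 than on control replicate 2, and the groups overlapped in all 4. The C1q chains had log2 fold changes of 0.22 (C1qa), 0.14 (C1qb) and 0.35 (C1qc), none of which passed the test. C1qa was at 6.93 and 7.56 on the shlinc-MYH arrays, against 7.17 and 6.87 on the control arrays, C1qb at 6.80 and 6.99, against 7.00 and 6.50, and C1qc at 7.45 and 7.72, against 7.52 and 6.95. In C1qa and C1qc the highest array was shlinc-MYH replicate 2.

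Of the lineage genes, Ms4a7 was at 6.97 and 6.89 on the shlinc-MYH arrays, against 6.63 and 5.79 on the control arrays, and Ly86 at 6.81 and 7.28, against 6.62 and 6.63. The groups did not overlap in either, but the log2 fold changes of 0.72 (SE 0.26) and 0.43 (SE 0.17) did not pass the test (limma adjusted p = 0.54 and 0.57). Aif1, named after its values were seen, was at 5.99 and 6.96 on the shlinc-MYH arrays, against 5.84 and 5.81 on the control arrays. Adgre1 was at 6.07 and 6.30 on the shlinc-MYH arrays, against 6.21 and 5.65 on the control arrays, and Csf1r at 5.78 and 5.69, against 6.03 and 5.65. Neither separated the groups. Among the receptors, Fcgr2b was at 6.12 and 5.99 on the shlinc-MYH arrays, against 6.08 and 5.46 on the control arrays, and Cybb at 7.34 and 7.35, against 7.43 and 6.84. For Cybb both shlinc-MYH arrays lay between the control arrays.

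The widest gaps between the TA control arrays were those of lysosomal genes, with a median of 1.30 over the 7. Gpnmb was at 7.12 and 6.15 on the shlinc-MYH arrays, against 8.22 and 5.55 on the control arrays, and its control gap of 2.67, or 6.37-fold, was the largest of all 19938 genes in this direction. Cd68 was at 7.05 and 7.21 on the shlinc-MYH arrays, against 8.04 and 6.20 on the control arrays, a control gap that ranked 8 of 19938 in the same direction. With these gaps the log2 fold changes of Gpnmb (-0.25) and Cd68 (0.01) had 95% intervals of -2.20 to 1.71 and -1.28 to 1.30. Ctss was at 9.07 and 9.36 on the shlinc-MYH arrays, against 9.64 and 8.31 on the control arrays, while its neighbor Ctsk, at 6.62 and 5.96, against 6.12 and 5.99, had a gap of only 0.12. Msr1, Ctss, Lyz2 and Tyrobp ranked 28, 31, 36 and 45 by their signed control gap. Of the chemokines, Ccl7 was at 5.96 and 5.89 on the shlinc-MYH arrays, against 5.77 and 5.26 on the control arrays, and Ccl8 at 4.94 and 4.45, against 4.68 and 4.54. Ccl2, by comparison, was at 5.62 and 5.38, against 6.10 and 5.06, between its control values.

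The other phagocyte lists gave no call in TA. Of the 72 genes, 40 were above 0, against 43.7% of all genes, with a median of 0.02 and a range of -1.12 to 0.83. The lowest value, in the cytokine and activation list, was also the lowest of all 19938 genes. It did not pass an unadjusted limma p of 0.05. At an unadjusted p of 0.05, 3 were higher, against 4.27% of all genes, and 2 lower, against 4.37%. The median was 0.14 without control replicate 1 and -0.08 without control replicate 2. Ccl12, a chemokine of the same cluster as Ccl2, was at 5.69 and 5.72 on the shlinc-MYH arrays, against 5.07 and 5.02 on the control arrays, and had the lowest adjusted p of the lists, 0.30. The lysosomal protease Ctsl was at 9.79 and 9.99 on the shlinc-MYH arrays, against 9.35 and 8.77 on the control arrays (adjusted p = 0.45). Among surface and regulator genes Il34, a ligand of Csf1r, was at -0.36 and the receptor kinase Axl at 0.30 (adjusted p = 0.56 and 0.57), and the oxidase genes ranged from -0.15 (Cyba) to 0.02. Beside these, all 6 endothelial markers were below 0 in TA (median -0.72, and -0.29 without shlinc-MYH replicate 1 or -1.08 without shlinc-MYH replicate 2), with a mean log2 signal of 6.21 and 6.89 on the shlinc-MYH arrays and 7.25 and 7.16 on the control arrays. Satellite cell and myoblast markers had a median of 0.81, at 6.81 and 6.60 on the shlinc-MYH arrays and 6.03 and 5.71 on the control arrays. Their part in the values of the phagocyte genes was not tested.

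The genes that differed most between arrays of one group were partly the same in both tissues. Across the 38 genes, the gap between the TA control arrays and the gap between cSix1 KO replicate 1 and the mean of replicates 2 and 3 had a Pearson's r of 0.58 and a Spearman's rho of 0.55. Across all 19938 genes these were 0.15 and 0.04. The points share the same arrays and genes of one cell type, so they are not independent. The arrays and the direction of both gaps were those in which these genes stood apart. The shares of all genes that follow are therefore no independent baseline, and the counts describe the gaps without testing them. Both gaps were above 0 for 30 of the 38 genes (78.9%), against 22.6% of all genes. A gap of at least 1 in this direction on the log2 scale was found in TA for 8 of the 38, against 0.386% of all genes, and in gastrocnemius for 14, against 0.226%. Resident and C1q genes had gaps of 0.30 to 0.59 in TA and of -0.14 to 0.32 in gastrocnemius, below those of most lysosomal genes in both. Ccr2 and Cd86 had gaps above 0 in gastrocnemius (1.07 and 0.32) and below 0 in TA (-0.23 and -0.68).

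**Figure D4:**
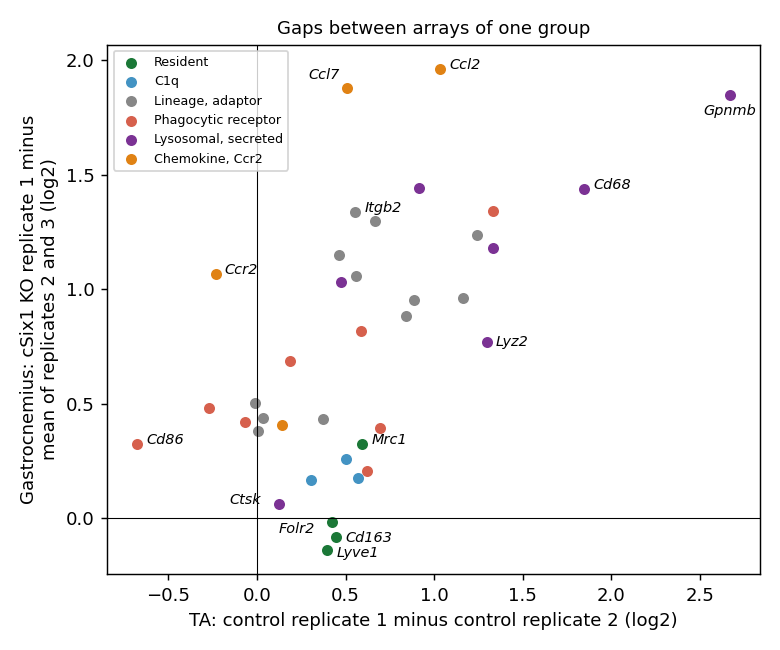
Gap between TA control replicates 1 and 2 (horizontal axis, log2) against the gap between cSix1 KO replicate 1 and the mean of replicates 2 and 3 in gastrocnemius (vertical axis, log2), 1 point per gene, colored by role. Gpnmb (2.67 and 1.85) and Cd68 (1.85 and 1.44) lie to the upper right, and the resident genes lie low, between -0.14 and 0.32 on the vertical axis.

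The difference between the comparisons was tested for each gene as a contrast of the 4 groups, which share no arrays. Of the 38 genes 0 were called, against 0.145% of all genes. The log2 fold change was lower for shlinc-MYH in TA than for cSix1 KO in gastrocnemius in 35 of 38 genes, against 11303 of all 19938 genes. The median difference was -0.47, against -0.03 over all genes. For Mrc1, called in gastrocnemius and not in TA, the difference was -0.65 with a limma adjusted p of 0.30, so the effect was not shown to differ between the comparisons. For Cd68 it was -0.93 (adjusted p = 0.64). C1qc (0.04), Ms4a7 (0.23) and Aif1 (0.61) were the exceptions in direction.

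**Figure D5:**
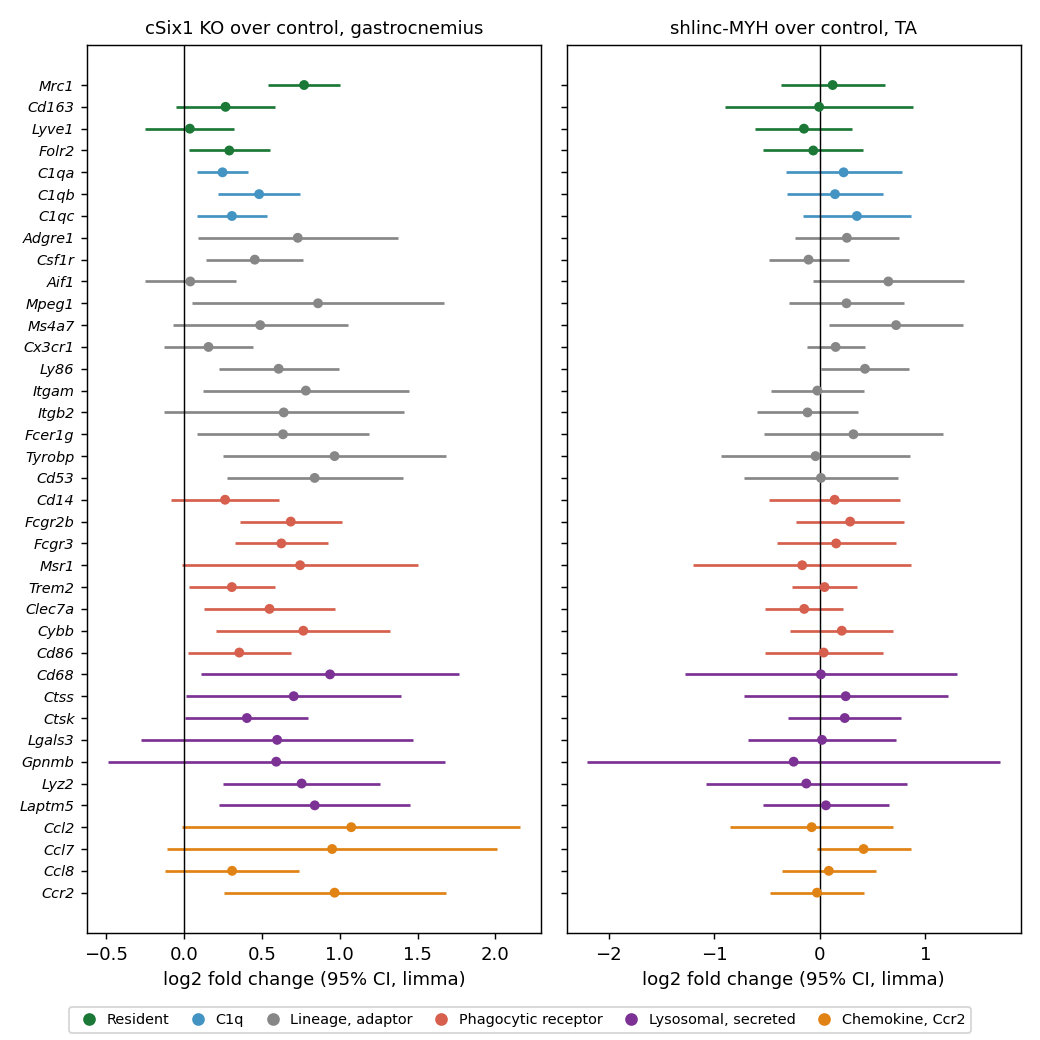
Log2 fold change of each gene with its 95% limma interval, cSix1 KO over control in gastrocnemius (left) and shlinc-MYH over control in TA (right), on separate horizontal scales. In gastrocnemius all points are above 0 and Mrc1 has a narrow interval of 0.54 to 1.00, while in TA the points lie around 0 and Gpnmb has the widest interval, -2.20 to 1.71.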

How the data were processed

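Muscle RNA was measured on 10 arrays, grouped by the sample labels. The deposited values are log2 signals, which the authors made by RMA for each probe set. The processing notes name RMA and Partek, the methods name R, and the labels and methods differ on the amplification kit and RNA amount. RMA compresses very dim and very bright signals and hides a shift shared by all genes. The 35556 probe sets held 0 missing values. Probe sets with 1 gene symbol (21789) were used, with the brightest over all 10 arrays for the 999 genes with several. All 38 genes had 1 probe set and matched RefSeq of GRCm38.p6 by Entrez number. The members and lists were chosen with earlier results of these data known.

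In R 4.3.3, lmFit and eBayes of limma 3.58.1 were run on the arrays of 1 tissue at a time. The main fits had no block, so a pairing of opposite legs in TA was not used. P-values were adjusted by Benjamini and Hochberg's method for 19938 genes, and an adjusted p under 0.05 was called. To test how the comparisons differed, a contrast was taken in 1 fit of all 10 arrays. The fit was checked on simulated data. No set test was run. Values on every array were given for Adgre1, Csf1r, Cd68, the resident and the C1q genes, for called members, and for the 2 genes of each role whose moderated statistic was largest in a comparison. Of each other list up to 3 genes were named in the same way. Fold changes are given for the rest, and other genes were named after their values were seen. Alternatives were quantile normalization, centring on medians, leaving out dim genes, the mean of probe sets, the methods' t-test, 1 fit of all arrays, array weights, a robust prior with a trend on intensity, blocking on the replicate number, and leaving out each array. Medians of the roles and other lists without cSix1 KO replicate 1 or 1 TA control array, and sex as a block, were added after seeing the data. Arrays give no read depth, and their number limits the precision. Python 3.11.15, pandas 2.3.3 and matplotlib 3.10.9 were used. A gene of the study is not reported here.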

Additional observations from a re-analysis of the deposited data

How the results depend on the processing

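In gastrocnemius, the count of members called higher was 1, and it was 3 when genes dimmer than the median were left out and with an intensity trend and a robust prior (Mrc1, Fcgr2b and Fcgr3 in both), 2 with array weights (Mrc1 and Fcgr3), 2 with the replicate block (Mrc1 and Fcgr2b, adjusted p = 0.028), 6 with the methods' t-test unadjusted (Mrc1, Fcgr2b, Fcgr3 and the 3 C1q chains) and 0 with that test after Benjamini-Hochberg, where Mrc1 had an adjusted p of 0.166. Leaving out each array gave 0 to 1, and the 0 came without control replicate 2. The median of the members ranged from 0.32 to 0.77 over arrays left out, 0.32 without cSix1 KO replicate 1. All genes called were 181 higher and 166 lower. They were 32 to 351 and 19 to 209 over arrays left out, 564 and 425 with array weights, 119 and 67 with the replicate block, 1286 and 1317 with the t-test unadjusted and 3 and 1 after Benjamini-Hochberg. Only the lower count moved by over 1.5 times when dim genes were left out (254), with 1 fit of all 10 arrays (102) and with the trend (282).

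In TA, 0 members were called under every alternative except the t-test unadjusted (1 higher), and the median of the members ranged from -0.18 to 0.43 over arrays left out. The 3 genes called higher were 10 after centring, 105 (with 26 lower) with 1 fit of all arrays, 5 with the replicate block, 599 (784 lower) with the t-test unadjusted, 0 after Benjamini-Hochberg, and 0 to 0 over arrays left out.

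This check of directions covered only the members named by the rule above. Among the other members, Aif1 and Gpnmb in gastrocnemius were below 0 without cSix1 KO replicate 1. In TA others crossed 0 as well, such as Gpnmb (-1.58 to 1.09 over arrays left out). For the members named by the rule, directions turned for values near 0: Cd163 in TA to 0.010 with quantile normalization and 0.024 after centring, Cd53 and Cd68 in TA to -0.037 and -0.042 with quantile normalization, Ccr2 in TA to 0.0043 after centring, and Lyve1 in gastrocnemius to -0.010 after centring and -0.057 with array weights. Over arrays left out, ranges crossed 0 for Lyve1 in gastrocnemius (-0.089 to 0.11) and, in TA, for Adgre1 (-0.024 to 0.53), C1qa (-0.091 to 0.54), C1qb (-0.11 to 0.39), Ccl2 (-0.60 to 0.44), Ccl8 (-0.16 to 0.33), Ccr2 (-0.26 to 0.20), Cd163 (-0.59 to 0.58), Cd53 (-0.43 to 0.45), Cd68 (-0.91 to 0.93), Csf1r (-0.30 to 0.080), Ctsk (-0.098 to 0.57), Ctss (-0.42 to 0.91), Cybb (-0.088 to 0.50), Fcgr2b (-0.025 to 0.60), Fcgr3 (-0.19 to 0.50), Folr2 (-0.27 to 0.15), Laptm5 (-0.25 to 0.36), Lyve1 (-0.35 to 0.047), Lyz2 (-0.78 to 0.52) and Mrc1 (-0.18 to 0.42). The cause was not tested.

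Deviations of gastrocnemius arrays with the same replicate number correlated at 0.22, -0.14 and 0.08. In TA, the 2 pairs give a single value by construction, 0.19. With so few arrays per group, these values cannot decide whether the numbers pair samples. In gastrocnemius, arrays with the same number did match in whether Xist was above Uty. Among the 38 genes the block changed no call in TA and added that of Fcgr2b in gastrocnemius. In gastrocnemius, sex as the arrays show it as a block left 1 member called (223 genes higher and 182 lower in all). The 2 or 3 arrays per group limit the precision.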
